A study of Rattus norvegicus with 6 samples.

Results

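Potassium channel genes were taken as every gene of the deposited table whose symbol begins with Kcn, the prefix shared by pore-forming potassium channel subunits and their dedicated accessory subunits. There were 81 such genes among 21648, all of them protein-coding. The cells were neonatal rat ventricular myocytes (NRVM), wild-type heart muscle cells isolated from pups at postnatal day 3 and grown as primary cultures. Fibroblasts had been reduced by letting them attach to plastic first, and bromodeoxyuridine, which restrains dividing cells, was in the plating medium, so the cultures are enriched in myocytes but are not pure. Of the 6 cultures, 3 received the solvent DMSO and 3 received 10 µM of compound 915 in DMSO, all for 72 h. By the submitters' account 915 activates ERRs, the estrogen-related nuclear receptors, which are known to drive genes of energy metabolism in heart. A second ERR agonist named in the design was not analysed here. The comparison asked how the agonist changes the transcriptome of cardiac myocytes. The labels number the replicates as biological but do not say whether each came from its own heart cell isolation. If they did not, a p-value here covers culture-to-culture and technical spread alone.

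Potassium channels carry the outward current that ends the cardiac action potential and hold the resting membrane near the potassium equilibrium potential. In the ventricle the early transient outward current flows through Kv4 channels, which need the calcium-binding subunit KChIP2 for full surface expression. Delayed rectifiers, among them those built from Kcnh2 and Kcnq1, complete repolarization. The inward rectifiers of the Kcnj family set the resting potential, and two-pore Kcnk channels give a background leak. The balance of these currents is known to shift as heart muscle matures after birth and to change again in hypertrophy and failure.

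Levels below are deposited CPM, reads of a gene per 1000000 reads counted in the library. Table sums ranged from 36799845 to 40010826 counts with DMSO and from 30639244 to 38078137 with 915. A gene without a read could have had up to 3 counts, which is 0.0698 to 0.0917 CPM depending on the library, a limit for counting error alone because no molecular identifiers were used. Transcript lengths were not used here, so levels were compared between groups for each gene and not between genes. Fold changes and adjusted p-values came from edgeR's quasi-likelihood test over all genes, with a threshold of 0.05. A log2 fold change is 915 over DMSO with its standard error (SE), and a mean level carries its SD over the 3 libraries of a group. In the same libraries all 8 cardiomyocyte markers of a chosen list (such as Tnnt2, Myh6 and Ryr2) were called higher (median log2 fold change 0.52), and their summed level was 19166 to 20216 CPM with DMSO and 27010 to 27286 CPM with 915. Of 7 fibroblast markers 4 were lower and 2 higher (21005 to 21874 CPM with DMSO and 11084 to 11728 CPM with 915), while 3 of the 4 measured for smooth muscle or pericytes fell (1521 to 1661 CPM with DMSO and 596 to 641 CPM with 915). Of 5 endothelial markers 3 were lower and 1 higher (48.0 to 50.7 CPM with DMSO and 38.8 to 40.9 CPM with 915), and of 6 macrophage markers 4 were lower (209 to 225 CPM with DMSO and 106 to 128 CPM with 915). Of 5 tested neuron and neural crest markers 2 were lower (45.9 to 51.0 CPM with DMSO and 33.4 to 38.3 CPM with 915), with Elavl4 and Th too scarce to test, and of 4 pacemaker and conduction markers 3 were lower (109 to 112 CPM with DMSO and 55.5 to 57.6 CPM with 915). Single genes weighed heavily in some of these sums. Over all libraries Hcn4 made up 85.8% of the pacemaker and conduction sum and Tagln 71.6% of the smooth muscle and pericyte sum. Lyz2 made up 56.6% of the macrophage sum and Col1a1 55.8% of the fibroblast sum. The largest share in the cardiomyocyte sum was 24.2% (Tnnt2). None of these markers was at 0 in all libraries. In bulk RNA, fewer cells of a type and less RNA per cell cannot be told apart, and the part of these shifts in the channel results was not tested.

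With 915 the potassium channel genes moved in both directions, and more of them fell than rose. Among the 57 that passed the filter on low counts, 8 were called higher and 17 lower, against 24.3% and 25.5% of all 14253 tested genes that were called higher and lower, and 49.8% called in either direction. The members' shares were 14.0% higher and 29.8% lower. Their median log2 fold change was −0.13, beside −0.01 over all tested genes. A total of 44 passed the filter on the libraries of both groups. Another 4 (Kcna2, Kcna5, Kcnip2 and Kcns1) passed on the 915 libraries alone and 4 (Kcnj4, Kcnb2, Kcnma1 and Kcnt2) on the DMSO libraries alone, with 5 passing on neither group by itself, so these counts describe the genes and support no statement about the family. The genes with the largest increases for their error were Kcnip2 (KChIP2, 12.5-fold) and Kcnk3 (TASK-1, 1.90-fold), and the clearest decreases were those of Kcnv2 (3.16-fold lower) and Kcnmb1 (4.01-fold lower). By class, 1 of 11 tested inward rectifier genes was higher and 3 lower, and 2 of 16 voltage-gated genes were higher and 4 lower. Of 10 two-pore genes 2 were higher and 2 lower, and of 5 calcium-activated genes 1 was higher and 1 lower. Among 13 tested accessory and modulatory genes 2 were higher and 7 lower, and neither of 2 sodium-activated genes passed.

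**Figure D1:**
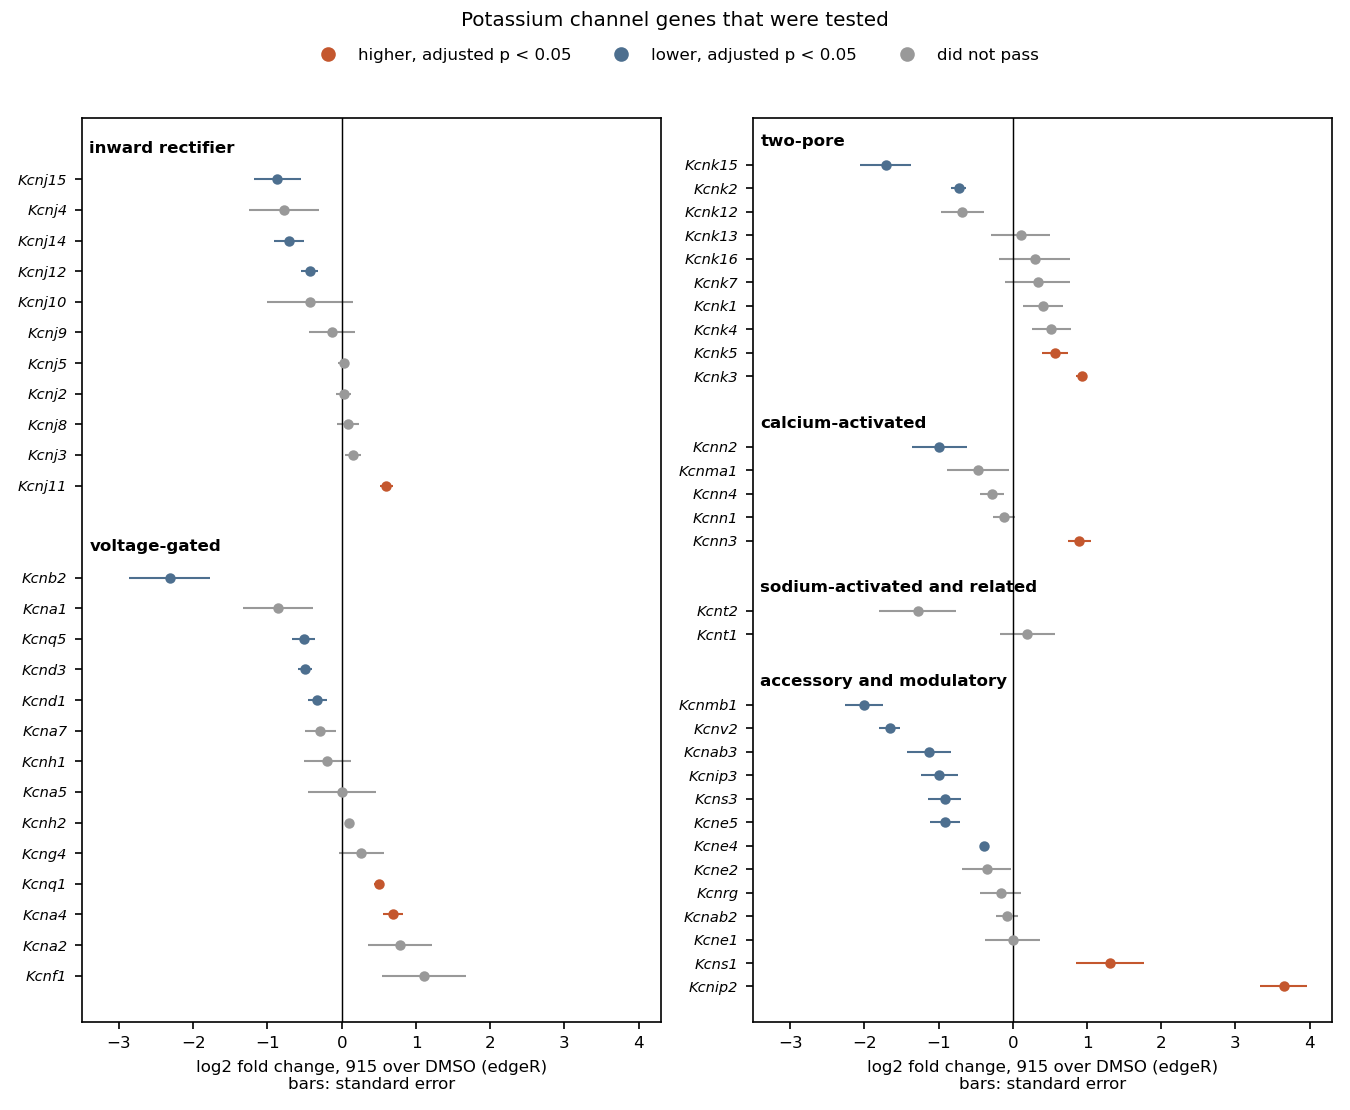
Log2 fold change of 915 over DMSO (horizontal axis) for 55 of the 57 tested potassium channel genes, grouped by class, with bars for the standard error. Kcnip2 stands farthest to the right at 3.65, and Kcnb2, Kcnmb1, Kcnk15 and Kcnv2 lie farthest to the left, between −2.31 and −1.66.

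Genes of the transient outward current moved in both directions. Kcnip2 and Kcna4 rose, and Kcnd3 and Kcnip3 fell, as did Kcnd1 in a call that was lost in some alternatives. Kcnip2 (ENSRNOG00000018018) encodes KChIP2, the cytosolic calcium sensor that carries Kv4 channels to the surface and slows their inactivation. Its level was 0.186, 0.144 and 0.202 CPM in the 3 DMSO libraries, in the order of their numbers, against 2.22, 2.38 and 1.97 CPM in those given 915. These values rest on 8, 6 and 8 reads with DMSO and on 85, 78 and 80 reads with 915, so the groups lay far apart although the gene stayed scarce. The log2 fold change was 3.65 ± 0.312 (SE; edgeR adjusted p = 3.06e-07), and it stayed between 3.53 and 3.75 when any 1 library was left out. Kcnip2 had passed the filter on the 915 libraries alone, the group in which it was higher. The 250 bases before its RefSeq transcription start (GRCr8, chr1:254613899-254614148, minus strand, 68.0% G or C) are shown because Kcnip2 changed more than any other member, with both GC boxes (GGGCGG, the motif bound by Sp1-type factors) in capitals.
Kcnip2: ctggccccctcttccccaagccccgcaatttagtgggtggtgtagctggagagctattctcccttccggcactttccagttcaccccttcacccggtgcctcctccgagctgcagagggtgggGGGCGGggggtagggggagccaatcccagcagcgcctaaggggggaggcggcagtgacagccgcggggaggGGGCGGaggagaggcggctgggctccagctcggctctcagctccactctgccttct
The measured Kv4 pore genes were lower. Kcnd3 (Kv4.3) was at 19.6, 16.1 and 18.2 CPM with DMSO and at 11.9, 13.2 and 12.0 CPM with 915, 1.41-fold lower (−0.49 ± 0.0907, edgeR adjusted p = 4.29e-04). Every 915 library was below every DMSO library. Kcnd1 (Kv4.1) went from 7.09 ± 0.756 to 5.47 ± 0.426 CPM (mean ± SD, n = 3 each; −0.33 ± 0.127, edgeR adjusted p = 0.0435), a call that was lost without DMSO library 2 (adjusted p = 0.178) or 3 (0.0800), without 915 library 1 (0.120) or 3 (0.110), and in DESeq2 (0.0810). Kcnd2 (Kv4.2) was not analysed here. Kcna4 (Kv1.4), which carries the slowly recovering part of the transient current, rose 1.61-fold, from 5.91, 5.37 and 6.10 CPM to 7.59, 10.9 and 8.76 CPM (0.69 ± 0.135, edgeR adjusted p = 6.74e-04). Its groups did not overlap, and 915 library 2 was the highest. Kcnip3, a relative of KChIP2 that also acts as a transcriptional repressor, fell 1.98-fold from 1.84 ± 0.210 to 0.898 ± 0.152 CPM (edgeR adjusted p = 0.00410). The relatives Kcnip1 and Kcnip4 had means of 0.149 and 0.0993 CPM over all libraries and were not tested.

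**Figure D2:**
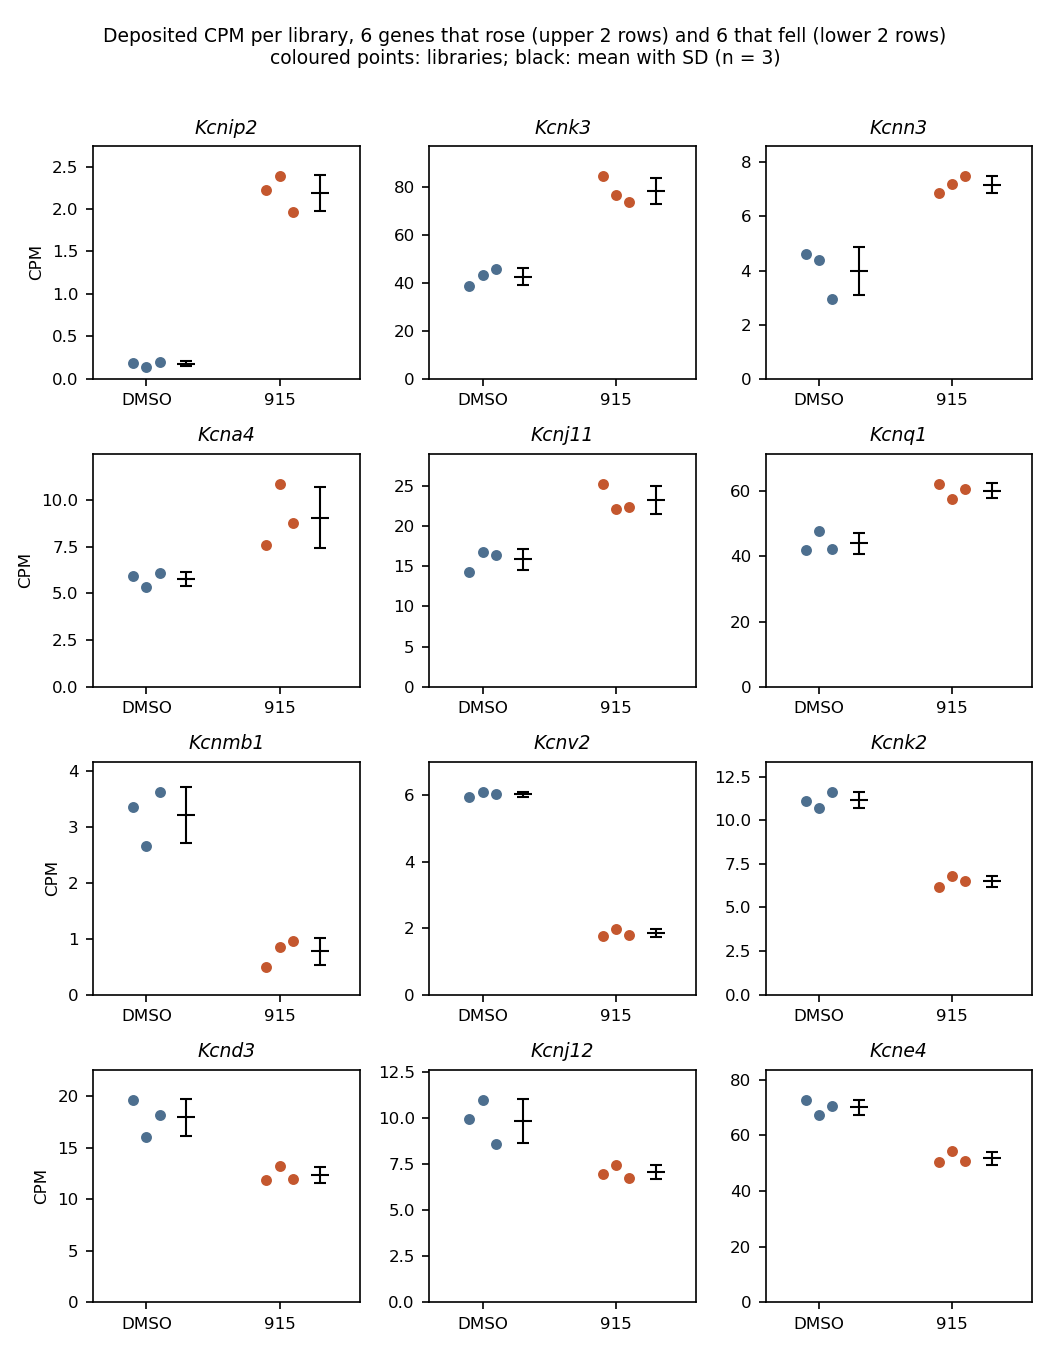
Deposited CPM per library (vertical axes, each starting at 0) for 6 potassium channel genes that rose with 915 and 6 that fell, with the mean and SD of each group of 3 in black. In all 12 panels the DMSO and 915 libraries do not overlap, a property shared by 26 of the 57 tested members and by 56.7% of all tested genes.

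Of the delayed rectifier genes Kcnq1 and Kcnh2, the first rose and the second did not pass the test. Kcnq1 (ENSRNOG00000020532), the pore of the slow delayed rectifier, was at 42.0, 47.7 and 42.3 CPM with DMSO and at 62.2, 57.7 and 60.6 CPM with 915. All 915 libraries were above all DMSO libraries, by 1.41-fold on average (0.50 ± 0.0651, edgeR adjusted p = 2.00e-05). A long non-coding RNA overlaps the span of Kcnq1 in the RefSeq annotation, and since the strand setting of the counting is not given in the sources used here, reads of such overlapping transcripts cannot be told apart. The same holds for the 13 of 25 called members whose spans overlap that of another annotated gene, Kcnk3, Kcnn3 and Kcnd3 among them, but not for Kcnip2, Kcnj11, Kcna4, Kcnj12 or Kcne4. Kcnh2 (ERG), the pore of the rapid delayed rectifier, was at 63.5, 62.8 and 65.9 CPM and 65.0, 65.7 and 68.7 CPM (0.10 ± 0.0529, approximate 95% interval −0.0020 to 0.21, edgeR adjusted p = 0.126). Kcnb2, a delayed rectifier pore, was scarce and lower, at 1.12, 0.698 and 0.962 CPM with DMSO and 0.314, 0 and 0.197 CPM with 915 (−2.31 ± 0.544, edgeR adjusted p = 0.00273). It had passed the filter on the DMSO libraries alone, the group in which it was higher. Kcna5 (Kv1.5), known for the ultrarapid atrial current, was scarce and did not pass (0.422 ± 0.212 and 0.411 ± 0.143 CPM). Kcnq5, a low-threshold M-type channel also found in smooth muscle, fell 1.43-fold (edgeR adjusted p = 0.0136), though not without DMSO library 3 (adjusted p = 0.0686). The tested pore genes Kcna1, Kcna2, Kcna7 and Kcnh1 did not pass, with means over all libraries of 0.325 to 2.35 CPM.

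Among the small Kcne subunits that tune these pores, Kcne4 and Kcne5 fell, and Kcne1 and Kcne2 did not pass. Kcne4, which inhibits Kcnq1 channels, fell from 72.7, 67.3 and 70.4 CPM to 50.3, 54.3 and 50.6 CPM, 1.31-fold lower with no overlap (−0.39 ± 0.0554, edgeR adjusted p = 4.45e-05). Kcne5, also an inhibitory subunit, fell 1.88-fold from 3.44 ± 0.450 to 1.75 ± 0.392 CPM (edgeR adjusted p = 0.00196). Kcne1 (minK), the partner that slows Kcnq1 into the classical slow current, was at 0.878 ± 0.449 CPM with DMSO and 0.843 ± 0.253 CPM with 915. The groups overlapped, and the interval of its log2 fold change, −0.72 to 0.72, was too wide to exclude a change of 1.5-fold either way. Kcne2 did not pass (0.702 ± 0.0713 and 0.537 ± 0.112 CPM), and Kcne3, with 43 reads in all libraries together, did not pass the filter (its values stand at the end).

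Among the silent subunits, which form no channel alone and modify other Kv channels, Kcnv2 and Kcns3 fell and the scarce Kcns1 was higher. Kcnf1 and Kcng4, also silent but counted in the voltage-gated class here, did not pass (means of 0.462 and 0.841 CPM over all libraries). Kcnv2 (Kv8.2) was at 5.96, 6.09 and 6.02 CPM with DMSO and 1.75, 1.99 and 1.80 CPM with 915, so that the groups were tight and far apart. It was 3.16-fold lower (−1.66 ± 0.147, edgeR adjusted p = 4.31e-07). Its span overlaps that of Pum3 in the RefSeq annotation, and Pum3 itself was at 32.8 ± 0.362 and 35.5 ± 2.35 CPM, a difference in the other direction (0.16 ± 0.0654, edgeR adjusted p = 0.0493). The bases before the start of Kcnv2 (GRCr8, chr1:234412924-234413173, plus strand, 51.6% G or C) are shown as those of the member with the smallest p-value among the decreases, with 1 GC box in capitals.
Kcnv2: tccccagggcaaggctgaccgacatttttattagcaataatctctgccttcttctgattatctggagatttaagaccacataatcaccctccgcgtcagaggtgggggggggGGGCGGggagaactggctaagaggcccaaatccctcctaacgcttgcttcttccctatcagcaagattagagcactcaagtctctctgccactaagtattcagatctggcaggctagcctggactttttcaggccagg
Kcns3 (Kv9.3) fell 1.89-fold from 2.54, 2.79 and 2.40 CPM to 1.10, 1.62 and 1.25 CPM (edgeR adjusted p = 0.00274). Kcns1 (Kv9.1) was higher, at 0.140, 0.144 and 0.278 CPM with DMSO and 0.314, 0.550 and 0.492 CPM with 915 (edgeR adjusted p = 0.0293). The gene had 6 to 20 reads per library and had passed the filter on the 915 libraries alone. This call was lost without DMSO library 1 (adjusted p = 0.118) or 2 (0.0986), without 915 library 2 (0.101) or 3 (0.0888), in DESeq2 (0.0856) and without the filter (0.0778). Among the cytoplasmic beta subunits of Kv1 channels, Kcnab3 fell 2.19-fold (1.39 ± 0.241 and 0.619 ± 0.156 CPM, edgeR adjusted p = 0.00631) and Kcnab2 did not pass (3.60 ± 0.244 and 3.29 ± 0.201 CPM). Kcnrg, which hinders the assembly of Kv1 channels, did not pass either (1.18 ± 0.239 and 1.02 ± 0.156 CPM).

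Among the inward rectifiers, the ATP-sensitive pore gene Kcnj11 rose, the resting-current gene Kcnj2 did not pass and its relative Kcnj12 fell. ATP-sensitive channels join a Kir6 pore with a sulfonylurea receptor and open when cellular ATP falls. Kcnj11 (Kir6.2) was at 14.3, 16.8 and 16.4 CPM with DMSO and 25.2, 22.1 and 22.4 CPM with 915, with every 915 library higher (0.60 ± 0.0868, edgeR adjusted p = 5.16e-05). The receptor gene Abcc8 (SUR1), its immediate neighbour on the chromosome in the RefSeq annotation, rose 1.56-fold from 28.6, 29.8 and 29.0 CPM to 46.3, 43.6 and 42.1 CPM (edgeR adjusted p = 1.01e-06). Abcc9 (SUR2), the main receptor of ventricular channels, rose 1.28-fold from 64.9, 53.5 and 63.0 CPM to 75.9, 80.7 and 68.2 CPM (edgeR adjusted p = 0.00121). Kcnj8 (Kir6.1), the neighbour of Abcc9 and the vascular form of the pore, was at 6.10, 4.91 and 5.44 CPM with DMSO and 5.42, 4.65 and 6.69 CPM with 915. Its groups overlapped, and the log2 interval was −0.21 to 0.37.

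**Figure D3:**
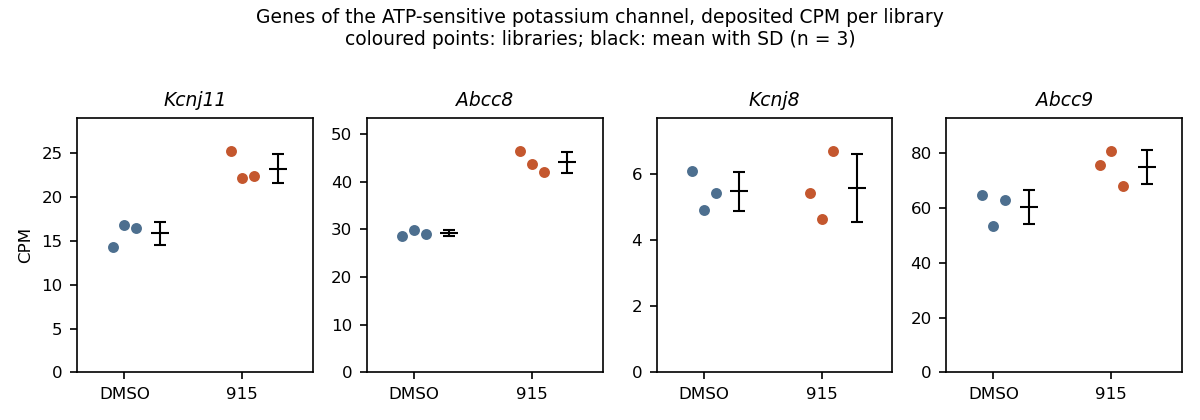
Deposited CPM per library (vertical axes from 0) for the pore genes Kcnj11 and Kcnj8 and the receptor genes Abcc8 and Abcc9 of the ATP-sensitive channel, with the mean and SD of each group of 3 in black. The groups are apart for Kcnj11, Abcc8 and Abcc9 and overlap for Kcnj8.

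Kcnj2 (Kir2.1), the main pore of the ventricular resting current, was at 14.8, 15.9 and 15.0 CPM with DMSO and 15.2, 17.2 and 12.7 CPM with 915 (log2 interval −0.18 to 0.23, edgeR adjusted p = 0.862). Kcnj12 (Kir2.2), which joins Kcnj2 in mixed channels, was lower at 6.96, 7.49 and 6.79 CPM against 9.98, 11.0 and 8.60 CPM (1.35-fold lower, −0.43 ± 0.115, edgeR adjusted p = 0.00611). Kcnj14 (Kir2.4) fell 1.64-fold, from 2.78 ± 0.345 to 1.64 ± 0.106 CPM (edgeR adjusted p = 0.00787). Kcnj15 (Kir4.2) fell 1.82-fold with overlapping groups (edgeR adjusted p = 0.0346). That call was lost without DMSO library 2 (adjusted p = 0.0909) or 3 (0.144), without 915 library 1 (0.0891) or 3 (0.120) and in DESeq2 (0.0507). Neither pore gene of the acetylcholine-activated channel passed the test. Kcnj3 (Kir3.1) had 10.2 ± 0.754 and 11.0 ± 1.29 CPM (log2 interval −0.055 to 0.36), and Kcnj5 (Kir3.4) had 15.7 ± 0.167 and 15.4 ± 0.733 CPM (−0.13 to 0.18). The other tested inward rectifier genes, Kcnj4, Kcnj9 and Kcnj10, did not pass and had means of 0.254 to 0.963 CPM.

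The two-pore leak channels diverged. Kcnk3 (TASK-1, ENSRNOG00000009790), an acid-sensitive leak channel, rose 1.90-fold, from 38.8, 43.2 and 45.8 CPM with DMSO to 84.5, 76.8 and 73.7 CPM with 915 (0.93 ± 0.0718, edgeR adjusted p = 1.08e-07). Kcnk2 (TREK-1, ENSRNOG00000002653), opened by stretch and fatty acids, fell 1.66-fold from 11.1, 10.7 and 11.6 CPM to 6.17, 6.82 and 6.52 CPM (−0.73 ± 0.0998, edgeR adjusted p = 3.15e-05). For neither gene did the groups overlap. Kcnk5 (TASK-2) was higher, at 4.06, 3.39 and 3.86 CPM against 2.28, 3.13 and 2.48 CPM (0.57 ± 0.174, edgeR adjusted p = 0.0140), but not without DMSO library 1 (adjusted p = 0.0681) or 915 library 1 (0.0537). Kcnk15 (TASK-5), a relative that is not known to carry current, fell 3.28-fold from 1.28 ± 0.349 to 0.373 ± 0.0593 CPM (edgeR adjusted p = 8.47e-04). Its span overlaps that of Rims4, which had 0.179 ± 0.0642 and 0.0204 ± 0.0353 CPM and was not tested. Kcnk12 (THIK-2) missed the threshold (1.37 ± 0.0668 and 0.815 ± 0.257 CPM, edgeR adjusted p = 0.0636). Kcnk1, Kcnk4, Kcnk7, Kcnk13 and Kcnk16 did not pass either, at means of 0.308 to 1.32 CPM.

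Calcium-activated channels link the cytosolic calcium signal to the membrane potential, and of their genes Kcnn3 rose and the large-conductance subunit Kcnmb1 fell. Kcnn3 (SK3) was at 4.61, 4.38 and 2.96 CPM with DMSO and 6.85, 7.18 and 7.48 CPM with 915 (0.89 ± 0.155, edgeR adjusted p = 2.68e-04). DMSO library 3 was the lowest and the groups did not overlap. Kcnn2 (SK2) fell 1.98-fold, from 1.21 ± 0.533 CPM with DMSO to 0.588 ± 0.0788 CPM with 915 (edgeR adjusted p = 0.0410). Its groups met, since DMSO library 1 (0.605 CPM) lay among the 915 libraries (0.517 to 0.673 CPM), and without that library the adjusted p was 0.00544. The call was lost without any other library (adjusted p of 0.0534 to 0.188) and in DESeq2 (0.0525). Kcnn1 (SK1) and Kcnn4 (the intermediate channel) did not pass, at 5.67 ± 0.453 and 5.06 ± 0.852 CPM and at 3.67 ± 0.142 and 2.91 ± 0.396 CPM. Kcnma1, the large-conductance pore, was scarce in both groups (0.739 ± 0.215 and 0.508 ± 0.302 CPM, edgeR adjusted p = 0.378). Its beta subunit Kcnmb1 (ENSRNOG00000005465), which raises the channel's calcium sensitivity in smooth muscle, was at 3.35, 2.65 and 3.62 CPM with DMSO and 0.497, 0.856 and 0.959 CPM with 915. That is 4.01-fold lower with no overlap (−2.00 ± 0.257, edgeR adjusted p = 1.71e-05). In the same libraries the smooth muscle markers Tagln and Cnn1 fell by 1.69 and 1.54 on the log2 scale. That list held 6 markers, of which 4 were measured. Of the other 2 measured, Pdgfrb fell by 0.24 and Rgs5 did not pass (0.13 ± 0.305). Whether they share a source with Kcnmb1 was not tested. The bases before the start of Kcnmb1 (GRCr8, chr10:19061849-19062098, plus strand, 50.8% G or C) are shown because Kcnmb1 had one of the largest decreases without overlap between groups. They hold neither a GC box nor a CArG box, the serum response factor motif of smooth muscle genes.
Kcnmb1: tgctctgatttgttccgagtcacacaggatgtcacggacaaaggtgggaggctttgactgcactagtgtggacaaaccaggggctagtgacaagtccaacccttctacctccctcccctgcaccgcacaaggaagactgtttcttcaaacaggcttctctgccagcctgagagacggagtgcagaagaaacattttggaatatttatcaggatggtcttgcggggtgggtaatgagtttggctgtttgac
Its span lies within that of Kcnip1 in the RefSeq annotation, and Kcnip1 stayed under 0.33 CPM in every library. The sodium-activated channel genes Kcnt1 and Kcnt2 did not pass the edgeR threshold, Kcnt2 at 0.867 ± 0.152 and 0.328 ± 0.342 CPM (unadjusted p = 0.0280, adjusted p = 0.0552). Without 915 library 3, the highest of its group, Kcnt2 had an adjusted p of 0.00216.

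Ratios were compared for pairs of genes that are subunits of the same channel or relatives of each other. Each ratio was taken within a library as the log2 of CPM with 0.1 added, in which scaling between libraries nearly cancels, and 9 pairs were compared, 8 of them with a test. The 8 tested pairs were planned, though with earlier results of these data known. Kcnip2 over Kcnd3 was chosen after the values were seen and is a description only. Its ratio was −6.03 ± 0.0958 with DMSO and −2.45 ± 0.0941 with 915. The difference of 3.58 became 1.94 with 1 added in place of 0.1 and 4.10 with 0.01 added, and Kcnip2 with DMSO lay close to the added constant. For Kcnk2 over Kcnk3 it was −1.92 ± 0.112 with DMSO and −3.57 ± 0.159 with 915. The Kcnn2 over Kcnn3 ratio was −1.72 ± 0.961 with DMSO and −3.41 ± 0.195 with 915, and the Kcnj2 over Kcnj12 ratio 0.63 ± 0.143 with DMSO and 1.06 ± 0.154 with 915. In these 3 tested pairs the groups did not overlap. The exact two-sided permutation test gave p = 0.1 for each of them (0.267 with Benjamini-Hochberg adjustment), and 0.1 is the smallest value that 3 against 3 libraries allow. The other 5 pairs (Kcnj8 and Kcnj11, Abcc8 and Abcc9, Kcnj3 and Kcnj5, Kcna4 and Kcna5, Kcne1 and Kcnq1) overlapped between groups, with exact permutation p-values of 0.2 to 0.6.

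**Figure D4:**
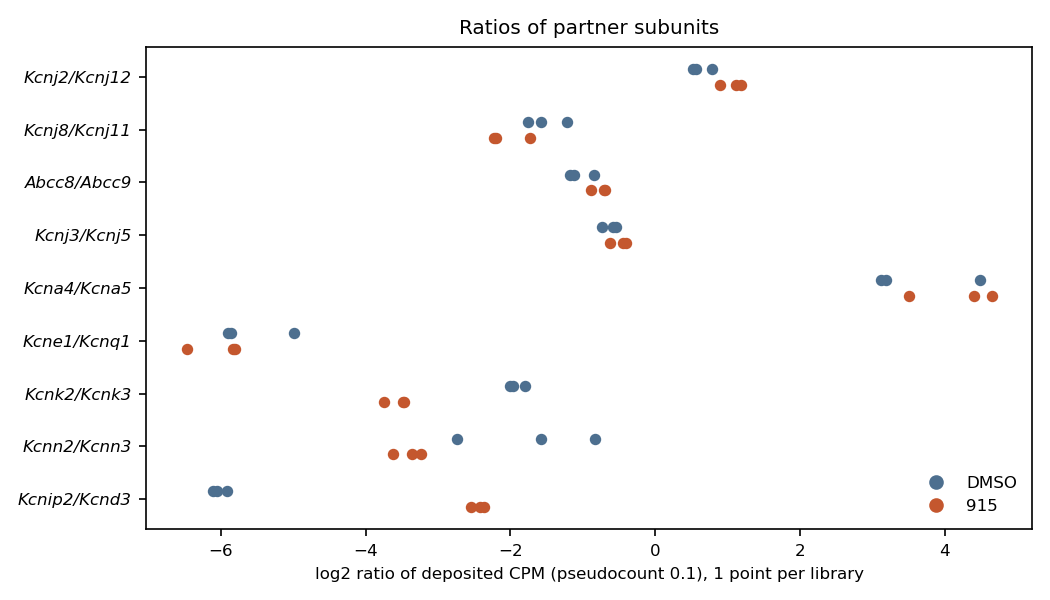
Log2 ratio of the CPM of the 2 genes of a pair in each library (horizontal axis, 1 point per library) for 9 pairs. The 915 points lie to the left of the DMSO points for Kcnk2/Kcnk3 and Kcnn2/Kcnn3 and to the right for Kcnip2/Kcnd3 and Kcnj2/Kcnj12, and the groups overlap in the other 5 pairs.

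Summed over all members of a class, reads moved most in the two-pore and accessory classes. The two-pore genes together took 57.7, 63.2 and 66.1 CPM with DMSO and 101, 92.4 and 89.0 CPM with 915, and Kcnk3 made up most of both sums. Accessory and modulatory genes took 98.0, 93.8 and 96.7 CPM and then 65.7, 71.0 and 66.9 CPM, a drop carried mainly by Kcne4. Voltage-gated genes took 159 ± 1.43 CPM with DMSO and 170.5 ± 1.86 CPM with 915, which did not overlap. The inward rectifier sums overlapped (78.4 ± 1.26 and 81.2 ± 4.54 CPM), as did those of the calcium-activated genes (15.3 ± 0.698 and 16.2 ± 1.17 CPM). The sodium-activated genes with their relative Kcnu1 took 1.73 ± 0.170 and 1.28 ± 0.207 CPM. A longer transcript gives more reads, so these sums describe reads and not channel numbers, and no test was made of them.

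Partner genes that carry no Kcn symbol were followed in a list of 25, of which 20 were tested. The test called 5 of them higher and 4 lower, near the 24.3% higher and 25.5% lower of all tested genes. Their median was −0.05 on the log2 scale, beside −0.01 for all tested genes. Besides Abcc8 and Abcc9 the higher genes were Amigo1, Adora1 and Sgk1. Amigo1, an adhesion protein that accompanies Kv channels, rose 1.42-fold (28.6 ± 2.08 and 39.3 ± 0.665 CPM, edgeR adjusted p = 2.15e-05). Adora1, the adenosine receptor that opens the acetylcholine-activated channel through inhibitory G proteins, rose 1.38-fold (23.4 ± 2.02 and 31.1 ± 1.07 CPM, edgeR adjusted p = 1.40e-04). Sgk1, a kinase that raises the surface density of several channels, rose 1.26-fold (edgeR adjusted p = 0.00285). The inhibitory G protein genes Gnai2 and Gnai3 fell 1.30-fold and 1.19-fold (edgeR adjusted p = 1.47e-05 and 0.00135). Chrm2, the muscarinic receptor upstream of the same channel, was scarce and did not pass (0.889 ± 0.0651 and 0.876 ± 0.0459 CPM). Dpp6, a membrane partner of Kv4 channels, fell 2.04-fold from 3.72, 2.79 and 3.04 CPM to 1.73, 1.25 and 1.53 CPM (edgeR adjusted p = 7.53e-04), in the direction of Kcnd3 and opposite to Kcnip2. Irx5, a repressor known to shape the Kv4 gradient across the ventricular wall, passed narrowly (24.5 ± 1.26 and 20.9 ± 0.492 CPM, edgeR adjusted p = 0.0497). Leaving out any 1 library ended that call, with adjusted p-values of 0.0535 to 0.190, as did DESeq2 (0.107). Irx3 did not pass (edgeR adjusted p = 0.0850). It was called lower with scaling by library totals only (edgeR adjusted p = 0.0216) and without 915 library 3 (0.0302). The large-conductance gamma subunit genes Lrrc26, Lrrc38, Lrrc52 and Lrrc55 and the Kv4 partner gene Dpp10 were too scarce to test.

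Promoter windows from RefSeq (GRCr8, 250 bases before to 50 after each annotated start) matched 53 of the 81 members by symbol, in 58 windows, and 18 of the 25 called members. The windows were searched on both strands for TNAAGGTCA, the extended half-site that ERRs bind. It occurred in 1 of 58 member windows (1.72%), beside 1.20% of all 33469 windows. That window belongs to Kcnh1, a gene that did not pass the test, and the 30 bases around the match (GRCr8, chr13:106252966-106252995, plus strand) are shown with the motif, read here on the opposite strand, in capitals.
Kcnh1: ctttgTGACCTTTAccggcctgtgtgtgac
None of the 5 windows of higher genes and none of the 15 windows of lower genes held it, those of Kcnip2, Kcnv2 and Kcnmb1 printed above included. Windows of Kcnj11, Kcnk3 and Kcnq1 were not among those searched. The shorter AAGGTCA, which lies inside that motif, was in 5 member windows (8.62%, beside 4.61% of all). The GC box GGGCGG was in 28 (48.3%, beside 33.1% of all), in windows whose upstream part had a median of 59.6% G or C against 51.2% over all windows. No CArG box was found in a member window, and 1.64% of all windows held one. A match or its absence describes these letters in these windows only.

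The other 24 members did not pass the filter on low counts. Kcnk18 and Kcns2 had no read in any library, which allows at most 0.0698 to 0.0917 CPM per library. The remaining 22 had between 1 and 49 reads over all 6 libraries together. Besides those already named they included Kcna10, Kcnc2, Kcng3, Kcnh4, Kcnh5, Kcnh6, Kcnh7 and Kcnq3 among the voltage-gated genes, Kcnj6, Kcnj13 and Kcnj16 among the inward rectifiers and Kcnk6, Kcnk9 and Kcnk10 among the two-pore genes, together with Kcnmb2, Kcnmb3, Kcnu1 and Kcnv1. Many of these are known mainly from neurons, kidney or secretory epithelia. The filter leaves their differences untested at this depth, and 1 of them, Kcne3, was called in some of the alternatives. Kcne3 had 5, 21 and 10 reads with DMSO and 4, 1 and 2 reads with 915, so its groups did not overlap. Its edgeR adjusted p was 0.0445 without the filter, 0.0117 without DMSO library 1 and 0.0365 without 915 library 1. The threshold was missed, at 0.0828, without 915 library 2 and, at 0.0883, without 915 library 3, and DESeq2 gave 0.0601.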

How the data were processed

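The tools that the submitters' processing notes list are STAR 2.5.1a and featureCounts from Subread 1.4.6-p5, with Rnor_6.0 as the rat build. Strand setting, handling of reads with several matches and annotation release: not given in the sources used here. The deposited count table had 22641 rows. Of these, 993 repeated an Ensembl identifier with the same counts and were dropped (1 of them a Kcn gene), which left 21648 genes. The deposited CPM values equal these counts divided by 1 total per library (32709227 to 42975767), of which the table holds 93.1% to 93.7%.

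Counts were filtered with filterByExpr (14253 genes kept), scaled by TMM and fitted in edgeR 4.0.16 (R 4.3.3) with quasi-likelihood tests and group as the 1 model term. Tests were two-sided. P-values were adjusted by Benjamini-Hochberg across every tested gene and called under 0.05. The standard error is the size of the log2 fold change divided by the square root of F, and approximate 95% intervals are 1.96 standard errors either way. The procedure was tested on simulated counts. No library is a copy of another, since replicate pairs gave chi-square values of 5.27 to 11.0 per degree of freedom. Subunit ratios were compared with exact permutation tests.

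Genes to be named were a set of cardiac channel genes taken regardless of their values and every called member that averaged 1 CPM or more and changed 1.5-fold or more, with the other tested members given more briefly. Members and lists were chosen with earlier results of these data known. Names, neighbours and promoter sequences came from RefSeq tables of the build GRCr8, which is not the build of the counts, so no other coordinates are given. The CArG box, GC box and AAGGTCA searches, and the Kcnip2 and Kcnd3 pair, were chosen after seeing the data. A few members entered the fit and the counts but are not reported by name here.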

Additional observations from a re-analysis of the deposited data

How the results depend on the processing

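The alternatives were DESeq2's size factors in edgeR, library totals without TMM, DESeq2, no filter, a filter at a mean of 1 CPM, the replicate number as a block, and leaving out each library. Over them the higher members numbered 6 to 8 and the lower members 13 to 19, against 8 and 17. Of the 25 called members, 19 kept their call in every alternative in which they were tested and none changed sign. Kcnj15, Kcnd1, Kcnn2, Kcns1, Kcnk5 and Kcnq5 lost theirs in at least 1, as given above. Kcnk12, Kcnt2, Kcnk4 and Kcnf1, and Kcne3 among the members that had not passed the filter, gained one in at least 1 alternative. The partner gene Irx3 also gained a call, as given above. Sign changes occurred among members that had not passed the test and in Chrm2, and the cause was not tested. With library totals only, which shift the median of all genes to −0.07, Kcne1, Kcnj2, Kcnj5, Kcna5 and Chrm2 had log2 fold changes of −0.054, −0.032, −0.032, −0.053 and −0.026. Leaving out 1 library in turn gave −0.22 to 0.51 for Kcne1, −0.077 to 0.13 for Kcnj2, −0.0096 to 0.056 for Kcnj5, −0.074 to 0.20 for Kcnj8, −0.28 to 0.054 for Kcnj9, −1.13 to 0.049 for Kcnj10, −0.35 to 0.25 for Kcna5, −0.25 to 0.39 for Kcnk13, −0.0035 to 0.87 for Kcnk16, −0.22 to 0.010 for Kcnn1, −0.066 to 0.54 for Kcnt1 and −0.036 to 0.071 for Chrm2. No pair ratio or class sum changed direction. The same-numbered libraries deviated from their group means with correlations of −0.03, −0.11 and −0.09. With so few libraries, these correlations cannot show whether equal numbers mark a shared isolation. With the replicate block 8 members were higher and 15 lower, Kcnt2 was gained, Kcnj15, Kcnn2 and Kcnd1 were lost, and no library correlated best with its own number. Members under 1 CPM (21) had a median standard error of 0.432, against 0.0777 for the 9 at 10 CPM or more, so only large changes could be called among the scarce ones.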
